A study of Homo sapiens with 5 samples.

Results

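The genes described here are 41 genes of Eph, ephrin, netrin and Slit guidance, chosen by name: 14 Eph receptors, 8 ephrins, 4 netrins, 2 netrin-G genes, 6 netrin receptors, 3 Slit ligands and 4 Robo receptors. All 41 were found by gene ID among the 64837 entries of the count files, 37 of them through the gene names in the deposited series table and 4 (EPHA1, EPHB6, EFNA4 and ROBO4) through the annotation alone. The libraries came from NCI-H209, an established human small cell lung cancer (SCLC) line, as 3 control cultures labelled untreated and 2 cultures kept with human brain microvascular endothelial cells (HBMECs) for 24 h. In the Transwell system used, HBMECs grew on a porous insert over the tumor cells, and medium passed between them without the layers touching. Both groups were this 1 line, grown in RPMI-1640 with fetal bovine serum, and the labels name no engineered allele. All RNA was depleted of rRNA and sequenced from directional libraries.

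Guidance receptors and their ligands steer growing axons and migrating cells by attraction or repulsion, and many of them also act between tumor cells and vessels. Eph receptors are receptor tyrosine kinases. They bind ephrins on neighbouring cells, ephrin-A ligands being held by a lipid anchor and ephrin-B ligands spanning the membrane, so that signals can run into both cells. Netrins are laminin-like secreted proteins read by DCC, neogenin and the UNC5 dependence receptors, and the netrin-G proteins are membrane-anchored relatives that work at synapses. Slits are large secreted proteins that mostly repel cells through Robo receptors.

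The libraries held 15457071 to 19157348 counts on genes of the library strand, and expected-strand reads were 92.3% to 93.1% of those assigned to either strand. Unmapped reads were 8.13% to 8.48% of the reads in control and 15.9% to 16.8% with co-culture. The first component of a principal component analysis carried 64.7% of the variance and split the groups, while the second held 18.3% and set control 1 apart from the rest. All pairs of replicates differed by more than counting noise (chi-square over its degrees of freedom, 4.59 to 18.1). The labels do not say that the cultures were separate, so the p-values measure the spread between these libraries, which may be technical. SCLC markers were present: the summed level of 16 neuroendocrine genes was 2825 to 3365 CPM (counts over the library size after TMM scaling) in control and 3866 and 3882 in co-cultured cells, although CHGA had at most 1 count in any library. A count of 3, taken as the floor, was 0.154 to 0.198 CPM, and floors cover counting error only.

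Markers of other cells were low. The summed level of 20 endothelial markers was 28.0, 20.5 and 18.4 CPM in controls 1, 2 and 3 and 24.2 and 24.5 CPM in co-cultured cells. The groups overlapped, though both co-cultured libraries lay above controls 2 and 3. KDR had 37, 27 and 2 counts in the controls and 12 and 4 with co-culture, and TEK 31, 24 and 0 against 6 and 3. Of these markers 8 had at most 3 counts in every library, PLVAP and SOX7 were at 0 throughout, and PECAM1 had 3 to 14 counts in control and 11 to 18 with co-culture. Among them ESAM (3, 4 and 6 counts in control, 21 and 14 with co-culture) and ICAM2 rose, and the part of endothelial RNA in the values below was not tested. The summed level of 7 fibroblast and blood markers was 9.68 and 9.46 CPM in controls 1 and 2, against 1.28 in control 3 and 2.62 and 3.77 in the co-cultured libraries. DCN, a proteoglycan of connective tissue, had 27 and 39 counts in controls 1 and 2 and 0, 3 and 1 in the other libraries. Controls 1 and 2 thus stood apart from control 3 here, and log2 fold changes of several Eph receptors are also given against control 3 alone. With 1 control library the spread comes from the co-cultured pair alone, so these are given as values with no p.

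The filter on low counts kept 32 of the 41 guidance genes, and 17 of these (53.1%) passed the test between co-cultured and control cells, 11 higher and 6 lower. The quasi-likelihood test of edgeR was used, with p-values adjusted by Benjamini-Hochberg over all 20360 genes kept and a threshold of 0.05. Of all those genes 33.4% passed, 18.4% higher and 15.0% lower. The median log2 fold change was 0.27 for the 32 genes and -0.03 for all genes tested. By the study's criterion for differentially expressed genes (DEGs), read as a log2 fold change beyond 1 in either direction with an unadjusted p under 0.05, 9 guidance genes were upregulated DEGs and 4 downregulated DEGs. These are 28.1% and 12.5% of those tested, where 5.44% and 5.01% of all genes were such DEGs. The groups did not overlap for 23 of the 32 genes (71.9%), beside 59.4% of all genes tested.

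**Figure D1:**
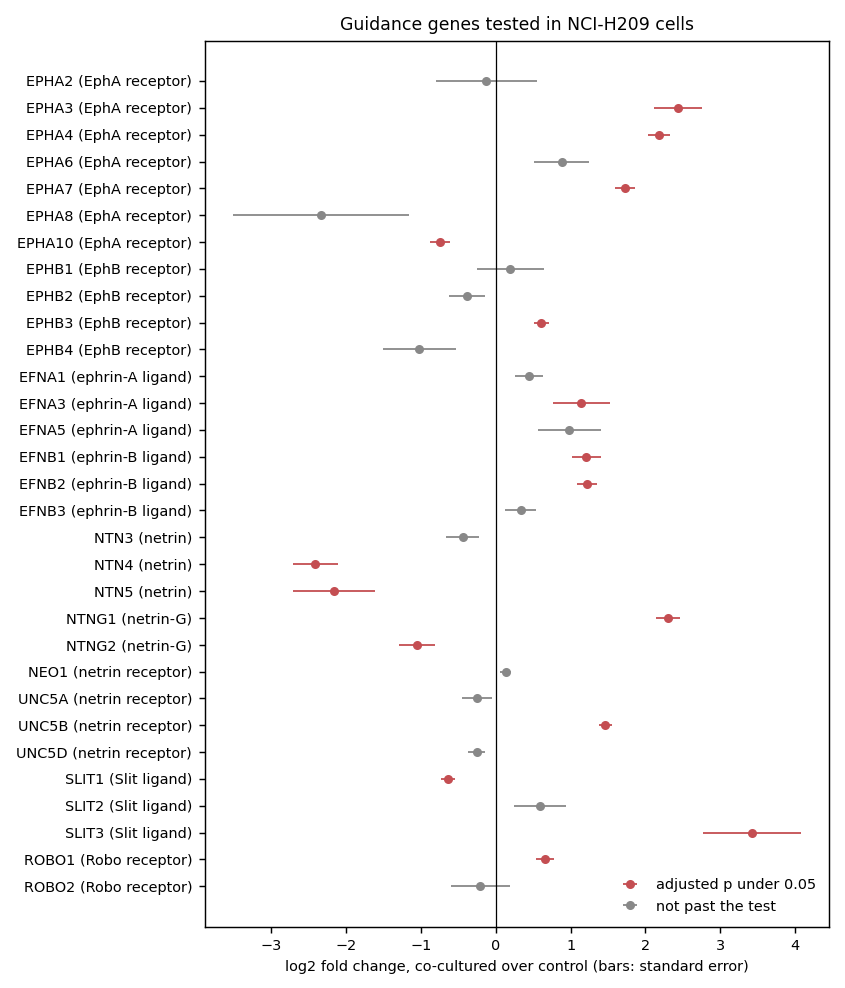
Log2 ratio of co-cultured to control cells (x axis, bars for the standard error) for each tested guidance gene except EPHA5, with genes and their roles on the y axis. Red points passed the test and gray points did not, and SLIT3 at 3.42 and NTN4 at -2.41 are the extremes of the red points.

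The upregulated guidance genes with the smallest p, a mean of at least 10 CPM in either group and an entry in the RefSeq promoter table were EPHA4, NTNG1, EPHA7, EFNB2 and EPHA3. The bases before their start site are shown because these genes rose and their windows are in the table, with capitals marking the matches to 4 motifs searched on both strands. The windows are those of RefSeq on GRCh38.p14, cut short where the gene of GENCODE release 29 starts further upstream, and are written 5′ to 3′ on the strand of the gene.
EPHA4, chr2:221574203-221574452, minus strand: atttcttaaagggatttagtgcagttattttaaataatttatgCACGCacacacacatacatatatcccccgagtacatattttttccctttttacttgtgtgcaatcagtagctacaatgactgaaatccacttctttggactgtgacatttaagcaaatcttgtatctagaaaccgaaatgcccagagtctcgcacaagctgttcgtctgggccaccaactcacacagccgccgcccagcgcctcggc
NTNG1, chr1:107139838-107140006, plus strand: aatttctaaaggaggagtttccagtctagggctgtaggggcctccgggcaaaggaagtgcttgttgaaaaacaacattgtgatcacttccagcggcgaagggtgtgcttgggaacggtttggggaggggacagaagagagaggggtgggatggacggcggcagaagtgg
EPHA7, chr6:93419560-93419809, minus strand: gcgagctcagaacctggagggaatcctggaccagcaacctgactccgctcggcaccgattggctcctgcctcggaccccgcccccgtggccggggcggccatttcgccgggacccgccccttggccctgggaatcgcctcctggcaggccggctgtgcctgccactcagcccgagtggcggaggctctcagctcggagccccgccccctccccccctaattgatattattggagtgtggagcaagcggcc
EFNB2, chr13:106535663-106535912, minus strand: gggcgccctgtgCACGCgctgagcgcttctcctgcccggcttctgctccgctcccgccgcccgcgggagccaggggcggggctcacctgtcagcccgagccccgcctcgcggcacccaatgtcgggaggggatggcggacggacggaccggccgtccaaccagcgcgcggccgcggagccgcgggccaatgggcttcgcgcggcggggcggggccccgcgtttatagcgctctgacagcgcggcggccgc
EPHA3, chr3:89107371-89107523, plus strand: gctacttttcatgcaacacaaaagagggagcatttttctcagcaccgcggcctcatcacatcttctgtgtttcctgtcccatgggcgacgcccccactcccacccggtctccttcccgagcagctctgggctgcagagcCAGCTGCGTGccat
The motifs were ACGTG and GCGTG, the core letters of hypoxia response elements, CAGCTG, an E-box form, and TGACTCA, the AP-1 site. GCGTG, on either strand, was found once each upstream of EPHA4, EFNB2 and EPHA3, where 32.2% of all 35116 promoter windows of 250 bases and 20.1% of windows as short as that of EPHA3 (153 bases) hold it. CAGCTG was found once upstream of EPHA3, overlapping GCGTG by 1 base, and 8.62% of windows of that length hold it. Neither ACGTG nor TGACTCA was in these 5 windows, and NTNG1 and EPHA7 held no match to any of the 4. ACGTG is in 18.5% and TGACTCA in 4.2% of all windows of 250 bases. The windows ranged from 43.2% GC for EPHA4 to 78.4% GC for EFNB2, with a median of 58.0% over all windows of 250 bases. The table held 34 of the 41 guidance genes, and UNC5B, which had the smallest p of all the guidance genes, was not among them.

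EPHA4, EPHA7 and EPHA3 were the Eph receptors that rose most. EPHA4, a receptor that binds ligands of both ephrin classes, had 18.2, 13.8 and 11.9 CPM in the control libraries and 68.5 and 63.8 CPM in the co-cultured libraries. Both co-cultured libraries were far above all controls. Its mean went from 14.6 ± 3.24 (SD, n = 3) to 66.1 ± 3.30 CPM (SD, n = 2), giving a log2 fold change of 2.18 (standard error 0.15, edgeR adjusted p = 4.05e-05). EPHA7 had 51.2, 42.6 and 41.5 CPM in control and 128 and 169.7 CPM in co-cultured libraries, giving a log2 fold change of 1.72 (standard error 0.13, edgeR adjusted p = 5.01e-05). The co-cultured libraries of EPHA7 lay further from each other than the controls did, yet both were above every control.

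EPHA3 rose by 2.43 on the log2 scale, from 2.92, 1.71 and 1.02 CPM in control to 10.9 and 9.45 CPM in co-cultured libraries (standard error 0.32, edgeR adjusted p = 0.000621). Its controls 1 and 2 also held 28 and 14 reads on the opposite strand beside 55 and 31 on its own, while control 3 held 0 beside 20. Compared with control 3 alone the log2 fold change was 3.30, and with opposite-strand reads subtracted 3.13, and the rise was thus as large without controls 1 and 2.

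EPHB3 was the EphB receptor that passed the test. It had 22.4, 23.5 and 22.2 CPM in control and 35.9 and 33.5 CPM in co-cultured libraries, giving a log2 fold change of 0.61 (standard error 0.09, edgeR adjusted p = 0.00141). EPHA10, an Eph receptor whose kinase domain is thought inactive, fell by 0.74 on the log2 scale. Its levels were 34.9, 46.3 and 43.3 CPM in control and 23.1 and 26.6 CPM in co-cultured libraries (standard error 0.13, edgeR adjusted p = 0.00310). Without co-cultured replicate 1 the log2 fold change of EPHA10 was -0.64. In bulk RNA such as this, fewer cells that express a gene and less RNA of it per cell cannot be told apart.

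The share of each receptor in the summed Eph receptor level, per kilobase of exon, is given here with no test. EPHA7 made up 27.9% to 32.4% of the summed Eph receptor level in control and 43.0% and 50.9% with co-culture. EPHA4 went from 8.56% to 11.4% of the sum in control to 22.7% and 18.9%. EPHA10 had 20.2% to 28.9% of the sum in control and 7.09% and 7.29% with co-culture. EPHB3 had 23.4% to 26.7% of it in control, against 19.8% and 16.5%. Control cells thus held 3 Eph receptors at similar levels per kilobase (EPHA7, EPHA10 and EPHB3), and co-cultured cells held mostly EPHA7, EPHA4 and EPHB3. The summed level of the EphA receptors was 14.04 ± 1.13 CPM per kilobase (SD, n = 3) in control cells and 33.8 ± 3.52 (SD, n = 2) with co-culture, and that of the EphB receptors 5.98 ± 0.359 (SD, n = 3) against 8.53 ± 0.207 (SD, n = 2).

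**Figure D2:**
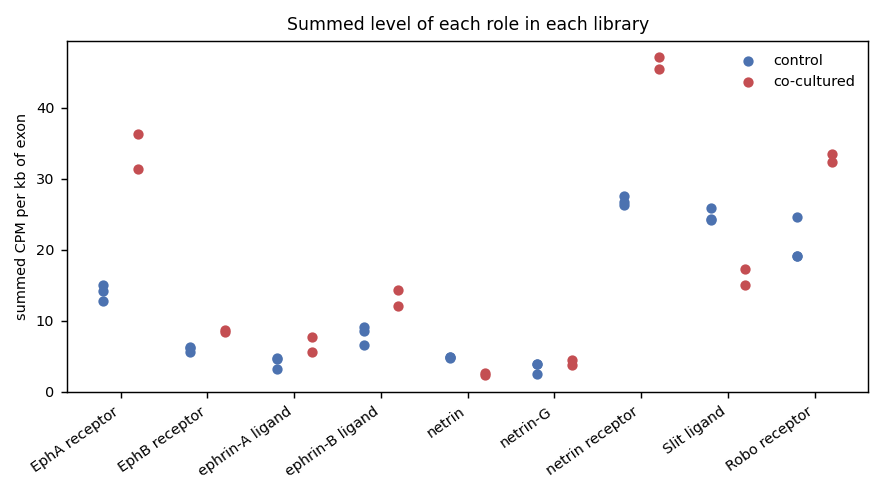
Summed level of the genes of each role (y axis, CPM per kilobase of exon) in each of the 3 control (blue) and 2 co-cultured (red) libraries, 1 point per library. Both co-cultured libraries lie above every control for the EphA and EphB receptors, the ephrin-A and ephrin-B ligands, the netrin receptors and the Robo receptors. They lie below every control for the netrins and Slit ligands, and the netrin-G genes overlap.

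For several other Eph receptors the controls differed among themselves, and controls 1 and 2 held reads on both strands of these genes. Of the 12 Eph receptors tested, 6 (EPHA2, EPHA3, EPHA8, EPHB1, EPHB2 and EPHB3) had at least 10 opposite-strand reads in both controls 1 and 2 and at least 3 times as many there as in any other library. That rule was chosen after the values were seen, and 0.634% of all genes tested (129 genes) met it. The pattern was not confined to Eph receptors. KDR, TEK, ERG and PDGFRB among the markers above met the rule, as did ABL1, DSCAM and PAK1 among the pathway genes below. KDR, another receptor tyrosine kinase, had 24 and 20 opposite-strand reads in controls 1 and 2 beside 37 and 27 on its own strand. EPHA2, a receptor common in epithelia and carcinomas, had 34 and 20 reads on its own strand in controls 1 and 2, with 25 and 30 on the opposite strand. In control 3 and in the co-cultured libraries it had 4, 22 and 10 reads, with 0 on the opposite strand in each. Its log2 fold change was -0.13 (edgeR adjusted p = 0.903) against all controls and 2.17 against control 3 alone. With opposite-strand reads subtracted it was 1.99 (edgeR adjusted p = 0.108), and the sign for EPHA2 thus differed between these settings, without a call against all controls or after subtraction.

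EPHA8 had 35 and 34 reads on its own strand in controls 1 and 2 with 38 and 25 opposite, and 0, 3 and 5 in control 3 and the co-cultured libraries. Its log2 fold change was -2.33 (edgeR adjusted p = 0.158), and it was too low to be tested against control 3 alone. Without control replicate 3 it passed (log2 fold change -2.92, edgeR adjusted p = 0.00295). EPHA5 had 16, 14 and 1 reads in control and 0 in both co-cultured libraries, with 8 and 17 opposite-strand reads in controls 1 and 2. It passed the test with an edgeR adjusted p of 0.0401 and was at least 3.09-fold lower in co-cultured cells, against a floor of 3 counts per library. In control 3, however, its single read lay under that floor, which leaves no fold. The call of EPHA5 thus rests on the reads of controls 1 and 2.

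EPHB1, a neuronal EphB receptor, had 96, 60 and 26 reads in control and 57 and 66 with co-culture, with 49 and 52 opposite-strand reads in controls 1 and 2 and 14 to 15 in the other libraries. Against all controls its log2 fold change was 0.20 (edgeR adjusted p = 0.764), and against control 3 alone 1.47, while with opposite-strand reads subtracted it was 1.27 (edgeR adjusted p = 0.177). EPHB2 had 82, 82 and 60 reads in control and 54 and 48 with co-culture, with 36 and 47 opposite in controls 1 and 2. Its log2 fold change was -0.38 (edgeR adjusted p = 0.249) and moved to -0.01 against control 3 alone. EPHA6 had 22, 10 and 18 reads in control and 34 and 21 with co-culture, with 11, 5 and 5 opposite-strand reads in control. Its log2 fold change was 0.88 (edgeR adjusted p = 0.0968), and 1.53 with opposite-strand reads subtracted (edgeR adjusted p = 0.0336). Against control 3 alone it was 0.82, with unstranded counts 0.53 (edgeR adjusted p = 0.293) and without control replicate 1 1.14 (edgeR adjusted p = 0.0207). EPHB4, best known from venous endothelium, had 12, 25 and 29 reads in control and 8 and 11 with co-culture, with at most 1 opposite, and a log2 fold change of -1.02 (edgeR adjusted p = 0.136), which became -1.32 without control replicate 1 (edgeR adjusted p = 0.0123). The summed fibroblast and blood markers given above were also higher in controls 1 and 2 than in control 3. In controls 1 and 2 DCN had 1 and 0 opposite-strand reads beside 27 and 39 on its own strand. LUM, COL1A1, COL1A2 and COL3A1 had 0 opposite-strand reads there, while PDGFRB had 35 and 15 beside 34 and 30. The part of RNA from other cells in the values of the Eph receptors was not tested.

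**Figure D3:**
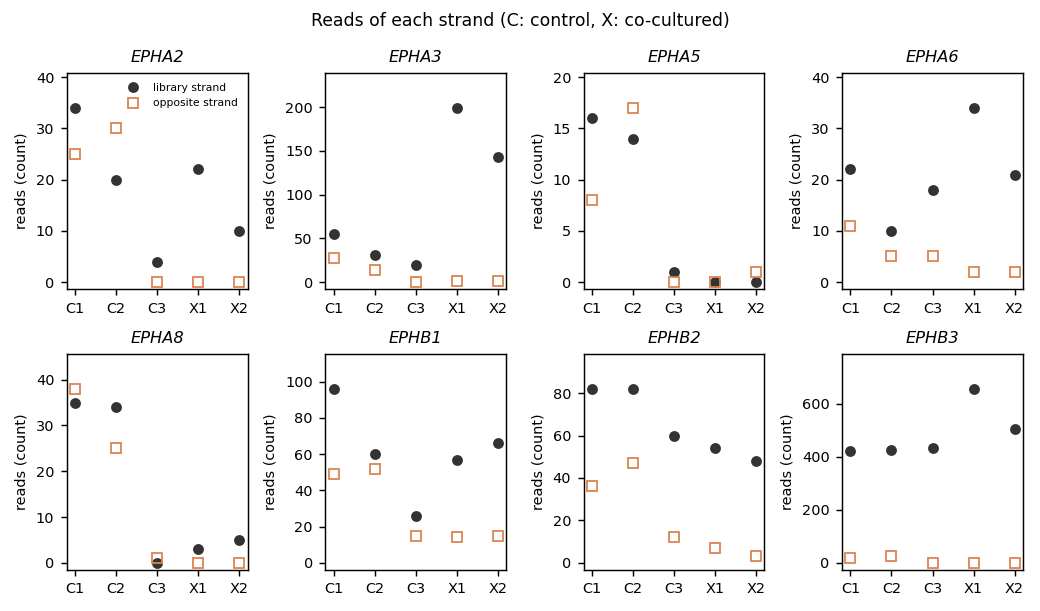
Reads on the strand of the library (black circles) and on the opposite strand (open squares) for 8 Eph receptors, with the read count on the y axis and the libraries on the x axis (C1 to C3 control, X1 and X2 co-cultured). For EPHA2 and EPHA8 both strands hold 20 to 38 reads in C1 and C2, and the opposite strand holds at most 1 read in the other libraries.

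**Figure D4:**
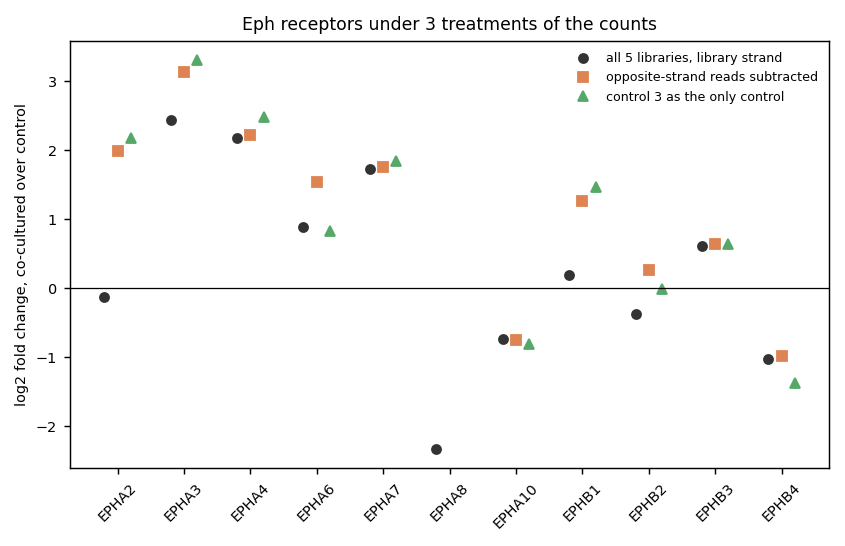
Log2 ratio of co-cultured to control cells (y axis) for the tested Eph receptors except EPHA5 (x axis), with all libraries (circles), with opposite-strand reads subtracted (squares) and with control 3 as the only control (triangles). EPHA2 moves from -0.13 to 1.99 and 2.17, EPHB2 lies on either side of 0, EPHA4, EPHA7 and EPHB3 hardly move, and of these settings EPHA8 could be tested only with all libraries.

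EPHA1 and EPHB6 had 0 counts in every library. Reads that map to more than 1 place are not counted in files of this kind, and whether that touched these genes was not tested.

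Among the 6 ephrins tested, 3 rose and 0 fell by the test, where 18.4% of all genes tested rose and 15.0% fell. EFNB2, the ephrin-B ligand of arterial endothelium and of many neurons, had 7.28, 6.41 and 6.66 CPM in control and 15.8 CPM in both co-cultured libraries. The log2 fold change of EFNB2 was 1.22 (standard error 0.13, edgeR adjusted p = 0.000243). EFNB1 had 4.94, 5.42 and 4.71 CPM in control and 13.8 and 9.38 CPM in co-cultured libraries, giving a log2 fold change of 1.21 (standard error 0.19, edgeR adjusted p = 0.00159). The groups stood clear of each other for both genes, though the co-cultured libraries of EFNB1 differed by more than those of EFNB2. EFNA3 had 0.798, 2.16 and 2.46 CPM in control and 4.54 and 3.43 CPM in co-cultured libraries, giving a log2 fold change of 1.15 (standard error 0.38, edgeR adjusted p = 0.0456). Control 1 was the lowest library for EFNA3, and without it the log2 fold change was 0.80. The call of EFNA3 was lost without control replicate 2 (edgeR adjusted p = 0.0676). Its log2 fold change was 0.93 without co-cultured replicate 1 and 1.33 without co-cultured replicate 2.

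Of the ephrins that did not pass, EFNB3 had 11.7, 18.2 and 20.4 CPM in control and 22.4 and 19.9 CPM in co-cultured libraries, so that the groups overlapped. EFNA1 had 6.17 to 7.85 CPM in control and 11.2 and 8.26 CPM in co-cultured libraries (edgeR adjusted p = 0.0900), and EFNA5 had 8 to 13 reads in control and 25 and 12 with co-culture (edgeR adjusted p = 0.103). EFNA2 had 4 to 11 reads per library and was not tested. EFNA4 had at most 1 read on its strand, and on the opposite strand 3, 2 and 7 reads in control and 0 and 2 with co-culture. Of its exon bases 15.0%, and of those of EFNA3 44.7%, also belong to a readthrough entry on the same strand (AL691442.1), and reads in shared bases count for neither gene. Per kilobase, the ephrin-B ligands summed to 8.07 ± 1.32 CPM (SD, n = 3) without and 13.2 ± 1.49 CPM (SD, n = 2) with co-culture.

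Of the 3 secreted netrins tested, 2 fell and 0 rose, where 15.0% of all genes tested fell and 18.4% rose. NTN4, a netrin of basement membranes that binds laminin, had 4.89, 7.74 and 6.60 CPM in control and 0.984 and 1.45 CPM in co-cultured libraries. All co-cultured values lay well under the controls, giving a log2 fold change of -2.41 (standard error 0.30, edgeR adjusted p = 0.000460). NTN5 fell from 0.744, 1.88 and 1.84 CPM to 0.383 and 0.264 CPM, giving a log2 fold change of -2.16 (standard error 0.55, edgeR adjusted p = 0.0150). The lowest control of NTN5 was control 1 with 14 reads, and without co-cultured replicate 1 or 2 its log2 fold change was -2.46 or -1.94. NTN3 had 130, 83 and 107 reads in control and 73 and 66 with co-culture (log2 fold change -0.44, edgeR adjusted p = 0.152). On its opposite strand NTN3 had 35 to 56 reads in every library, which is 32.8% of its reads of both strands in controls 1 and 2 and 33.0% in the other libraries. NTN1, the founding netrin, had 4, 2 and 1 reads in control and 1 and 3 with co-culture, and was not tested. On its opposite strand it had 44, 38 and 33 reads in control and 22 and 20 with co-culture.

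The netrin-G genes went in opposite directions. NTNG1 had 5.64, 5.42 and 4.15 CPM in control and 22.2 and 27.7 CPM in co-cultured libraries, with the groups far apart. Its log2 fold change was 2.30 (standard error 0.17, edgeR adjusted p = 4.34e-05). NTNG2 had 14.9, 26.2 and 27.1 CPM in control and 10.4 and 11.5 CPM in co-cultured libraries, giving a log2 fold change of -1.05 (standard error 0.24, edgeR adjusted p = 0.00921). Control 1 lay between the other controls and the co-cultured libraries for NTNG2. Without co-cultured replicate 1 or 2 the log2 fold change of NTNG2 was -0.98 or -1.12. Per kilobase, NTNG2 was the higher of the pair in control (2.90 ± 0.863 against 0.555 ± 0.0880 CPM, SD, n = 3), and NTNG1 in co-cultured cells (2.74 ± 0.425 against 1.40 ± 0.0950 CPM, SD, n = 2).

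UNC5B was the netrin receptor that changed. It is a repulsive receptor and a dependence receptor, also used by endothelial tip cells. It had 82.1, 72.4 and 73.8 CPM in control and 217 and 203 CPM in co-cultured libraries, giving a log2 fold change of 1.47 (standard error 0.08, edgeR adjusted p = 2.08e-05). These levels stand on 1310 to 1545 reads in each control and 3077 to 3973 with co-culture, beside at most 3 opposite-strand reads. NEO1, which encodes neogenin, had 73.2 to 76.3 CPM in control and 79.1 and 84.4 CPM in co-cultured libraries (log2 fold change 0.13, edgeR adjusted p = 0.201). UNC5A had 12.3, 17.2 and 20.5 CPM in control and 14.7 and 13.3 CPM in co-cultured libraries (log2 fold change -0.25, edgeR adjusted p = 0.358). UNC5D had 25.5, 29.6 and 31.4 CPM in control and 24.3 and 24.2 CPM in co-cultured libraries (log2 fold change -0.25, edgeR adjusted p = 0.120). Control 1 was the lowest control for both, and without it UNC5A and UNC5D passed the test (edgeR adjusted p = 0.00757 and 0.00472). DCC had 2 to 12 reads per library and UNC5C at most 2 (at most 3 opposite), and neither was tested.

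**Figure D5:**
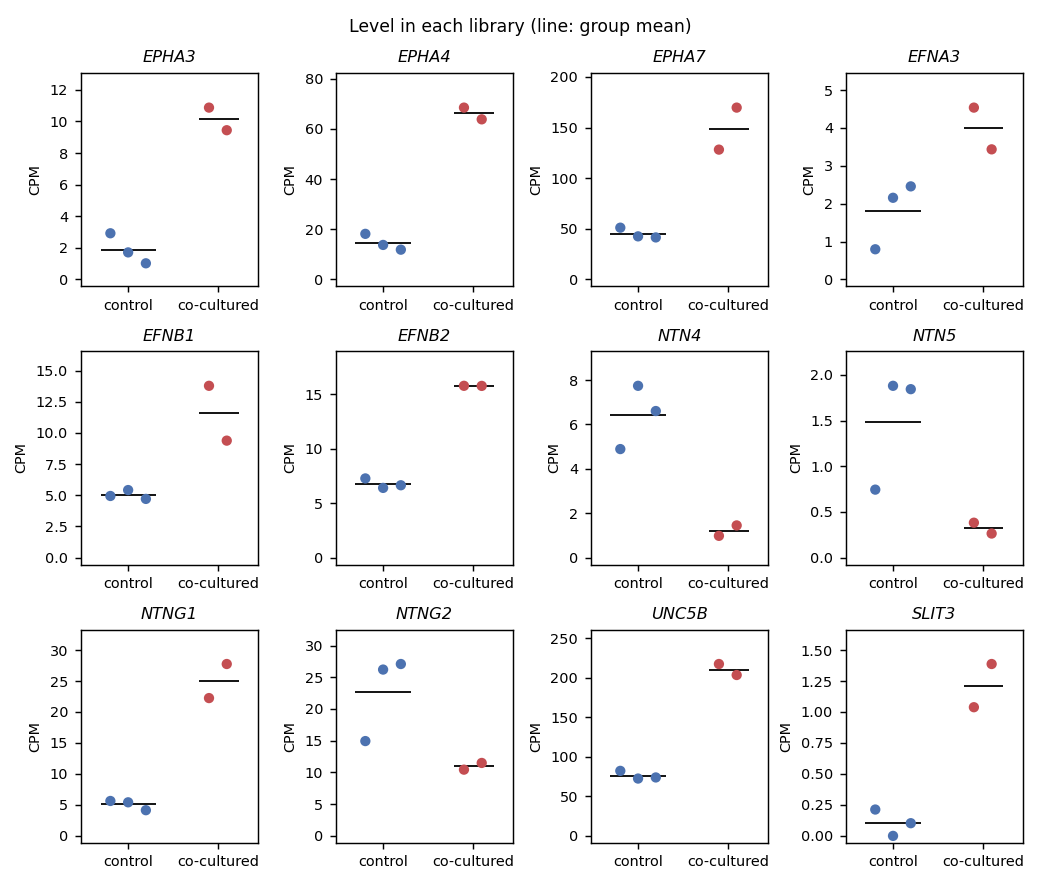
CPM in each library (points, with a line at the group mean) for the 12 guidance genes other than EPHA5 that passed the test with a log2 fold change beyond 1 in either direction, each on its own linear y axis. EFNB2 and UNC5B have the tightest groups, and for EFNA3, NTN5 and NTNG2 control 1 lies apart from the other controls.

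SLIT1 was the main Slit of these cells and fell. It had 220.02, 218 and 235 CPM in control and 155 and 134 CPM in co-cultured libraries, giving a log2 fold change of -0.64 (standard error 0.09, edgeR adjusted p = 0.000904). ROBO1, the Slit receptor most abundant here, rose in the same cells. It had 266, 207 and 207 CPM in control and 351 and 364 CPM in co-cultured libraries, giving a log2 fold change of 0.66 (standard error 0.12, edgeR adjusted p = 0.00270). Per kilobase, SLIT1 went from 24.7 ± 1.02 (SD, n = 3) to 15.9 ± 1.60 CPM (SD, n = 2) and ROBO1 from 20.8 ± 3.18 (SD, n = 3) to 32.8 ± 0.844 CPM (SD, n = 2). The mean of SLIT1 was thus above that of ROBO1 in control by about the spread of ROBO1 and well below it with co-culture. SLIT1 shares 2.37% of its exon bases with a readthrough entry on the same strand.

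SLIT3 rose from near the floor, with 4, 0 and 2 reads in control and 19 and 21 with co-culture. Its log2 fold change was 3.42 (standard error 0.65, edgeR adjusted p = 0.00406) and ran from 2.89 to 4.33 with each library left out. SLIT2 had 29, 29 and 17 reads in control and 44 and 24 with co-culture (log2 fold change 0.59, edgeR adjusted p = 0.219). ROBO2 had 11 to 18 reads per library (log2 fold change -0.20, edgeR adjusted p = 0.724), and ROBO3 had 2 to 10 and was not tested. ROBO4, a Robo receptor of endothelium, had 1 read in control 1 and 0 in the other libraries.

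Other genes that act with these ligands and receptors were taken from a list. Of 53 listed genes 49 were tested, and 15 (30.6%) rose and 4 (8.16%) fell, beside 18.4% and 15.0% of all genes tested. Their median log2 fold change was 0.18. Of 21 signaling genes of Eph receptors and ephrins 6 rose and 2 fell, of 13 tested genes of netrin signaling and other ligands of its receptors 4 rose and 1 fell, and of 10 Slit and Robo genes 2 rose and 1 fell.

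FYN, a Src family kinase downstream of Eph receptors, FLRT2, a ligand of UNC5 receptors, and VAV3, a guanine nucleotide exchange factor, had the smallest p among the genes that rose. FYN had 2152 to 2295 reads in control and 4114 and 3209 with co-culture, giving a log2 fold change of 0.88 (edgeR adjusted p = 9.49e-05). FLRT2 had 71 to 88 reads in control and 320 and 205 with co-culture, giving a log2 fold change of 1.90 (edgeR adjusted p = 0.000115). VAV3 had 65 to 99 reads in control and 214 and 220.0 with co-culture, giving a log2 fold change of 1.63 (edgeR adjusted p = 0.000503). LRRC4C, which encodes the partner of the NTNG1 protein on the facing membrane and was named after its values were seen, also rose, from 29 to 55 reads in control to 104 and 110.0 (log2 fold change 1.64, edgeR adjusted p = 0.00226). Of the genes that fell, SRGAP1, whose product binds a Robo receptor, had 1138, 869 and 955 reads in control and 477 and 417 with co-culture, for a log2 fold change of -0.97 (edgeR adjusted p = 0.000463). VAV2 fell by 0.53 and ADAM10, a protease that cleaves ephrins, fell by 0.44 on the log2 scale (edgeR adjusted p = 0.00135 and 0.00377). Without control replicate 1, 29 of the 49 tested genes of the list passed in place of 19. Of all genes tested, 49.5% passed in that setting in place of 33.4%.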

How the data were processed

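The authors deposited counts for each library, as whole reads per gene without normalization, with 1 column that ignores strand and others for either strand, as STAR writes them. The submitters' processing notes name CASAVA 1.8, STAR 2.6.1b, DESeq2 and GRCh38. The gene IDs hold all 58780 genes of GENCODE release 29 among 64837 entries. Reads not assigned to a gene (66.4% to 69.3% of each library) were left out of totals and tests. The deposited series table pairs gene IDs with names, which were used. It also holds the authors' group means, fold changes, standard errors, statistics and p-values, which were not used.

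Counts of the strand of the directional kit, 15457071 to 19157348 per library, were filtered with filterByExpr, scaled with TMM and compared by the quasi-likelihood test of edgeR 4.0.16 (R 4.3.3) with Benjamini-Hochberg adjustment over 20360 genes. A standard error is the size of the log2 fold change over the root of F. For 3 against 2 libraries the smallest p of an exact permutation test is 0.1. On simulated data for this comparison (20360 genes), 71 of 100 genes changed by 1 and 93 of 100 changed by 2 on the log2 scale were recovered, with 6 false calls. The simulated spread followed the mean level alone, and far fewer genes were changed than the 6809 that passed here. These rates thus may not carry over to the real libraries. Levels per kilobase use the union of exons. The counts of 1 group of the pathway list are not reported here. The members and lists were chosen with earlier results of these data known. All members are described. Values in every library are given at least for members that passed with a log2 fold change beyond 1, whose call changed under an alternative, or with over 1 in 4 reads on the opposite strand, and of the pathway list the 3 called genes with the smallest p in each direction are named. Alternatives were DESeq2 1.42.0, other scalings, filters, libraries and strands and a replicate block, for the pathway list added after the data were seen. Plots used matplotlib 3.10.9.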

Additional observations from a re-analysis of the deposited data

How the results depend on the processing

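In all, 14 alternatives were run. The number of guidance genes that passed the test was 17 of 32 in the main fit, where 33.4% of all genes tested passed. Without control replicate 1 it was 20 of 30 (49.5% of all genes), and without control replicate 2 it was 15 of 30 (25.3%). It was 19 of 32 with a replicate block (23.7%) and 14 of 25 with at least 10 counts in every library (37.2%). Counts of guidance genes are not given for fits with 1 library left in a group. With control 3 as the only control, the spread is taken from the co-cultured pair and the lone control is assumed to vary like it. Of the 17 genes 11 kept their direction and passed under every alternative that could test them: EPHA3, EPHA4, EPHA7, EPHB3, EFNB1, EFNB2, NTN4, NTNG1, UNC5B, SLIT1 and ROBO1. The other 6 (EPHA5, EPHA10, EFNA3, NTN5, NTNG2 and SLIT3) kept their direction but lost the call under at least 1 alternative. For all of these but EFNA3, that was only in fits with 1 co-cultured library left, where fewer of all genes passed too. EFNA3 also lost it without control replicate 2 and with upper-quartile scaling. The cause was not tested.

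The direction turned for EPHA2, EPHB1 and EPHB2, none of which passed the test. The log2 fold change of EPHA2 ran from -0.63 to 0.56 with each library left out. It was 2.17 with control 3 as the only control and 1.99 with opposite-strand counts subtracted, and the lowest value under any alternative was -1.01. EPHB1 ran from -0.18 to 0.69 with each library left out, and was -0.17 with the replicate block and -0.15 with unstranded counts. EPHB2 was 0.26 with opposite-strand counts subtracted. The number of pathway genes that passed was 19 and ran from 13 to 29 with each library left out. The lowest number came from a fit with 1 co-cultured library left, where fewer of all genes passed too. The highest came without control replicate 1, where 49.5% of all genes passed in place of 33.4%. The range thus moved with the share of all genes that passed.

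Deviations of same-numbered libraries from their group means had correlations of -0.11 and -0.07. The deviations of 2 co-cultured libraries mirror each other, so these correlations cannot decide whether the numbers pair the libraries. The replicate block added EPHA8 and EFNB3 to the guidance genes that passed. Upper-quartile scaling moved the median log2 fold change of all genes from -0.03 to -0.11. Over all genes 6809 passed, 2734 without co-cultured replicate 1 and 3023 without co-cultured replicate 2, where the lone co-cultured library is assumed to vary like the controls. The filter on low counts left 9 guidance genes untested at this depth.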
